A study of Drosophila melanogaster with 3 samples.

Results

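The genes described here encode the bone morphogenetic protein (BMP) ligands, receptors and extracellular regulators of Drosophila melanogaster. The 9 genes were chosen by name: the ligands dpp, gbb and scw, the type I receptors tkv and sax, the type II receptors put and wit, the secreted inhibitor sog and the protease gene tld. They are 9 of 13945 protein-coding genes in the annotation. For each gene, the summits of Scalloped ChIP-seq peaks that fell in the gene or within 2000 bp of either end were collected. A summit is the base at which a peak is highest. ChIP-seq sequences the DNA that is precipitated together with a chromatin protein.

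The samples were whole embryos of mixed sex, aged 4 to 20 h, from a transgenic line in which Scalloped carries GFP at its C terminus. An anti-GFP antibody was used for the precipitation, and chromatin had been sonicated to 200 to 800 bp. The 3 samples are biological replicates of this 1 group, each with its own biosample in the labels, so no contrast between conditions exists. Peak lists were deposited per replicate, over the pooled reads of all 3 and as a list thresholded on the irreproducible discovery rate (IDR), a measure of how alike peaks rank in replicates. The IDR list held 10553 peaks, which were the strongest 10553 of the 30000 in the pooled list. Each replicate list also held 30000 peaks. The read depth is unknown and the control alignment was not analysed here. In whole embryos, binding in few cells and weak binding in many cells cannot be told apart. No RNA was measured, so these peaks say where tagged Scalloped was found and not which genes it regulates.

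BMPs are secreted signals that assemble type I and type II serine/threonine kinase receptors on the receiving cell. The type II receptor phosphorylates the type I receptor, which phosphorylates the transcription factor Mad, and Mad enters the nucleus with Medea. In the early fly embryo Dpp and Scw specify dorsal tissues, Sog binds these ligands and carries them dorsally, and Tolloid, the product of tld, releases them by cleaving Sog. Later in embryogenesis Dpp acts in dorsal closure, midgut and tracheal development, and Gbb signals from muscle to motor neurons through Wit. Scalloped is the fly TEA-domain (TEAD) transcription factor, which lacks an activation domain of its own and acts through partners such as Yorkie, the Hippo pathway coactivator, and Vestigial.

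Scalloped summits were found at both kinds of receptor, at 2 of the 3 ligands and at the inhibitor, but not at every gene. In the IDR list, 6 of the 9 genes had a summit (66.7%), against 44.0% of all protein-coding genes. The long genes tkv and dpp held 15 and 11 summits. The gene sog held 5, gbb and wit held 3 each, and sax held 1. None was found at scw, put or tld. Together these are 38 summits, or 21.7 per 100 kb of the 175 kb searched. Over all protein-coding genes with the same margins the density was 9.35 per 100 kb. The genes differ in length, and longer genes had summits more often. Of protein-coding genes of at least 30 kb, 73.3% had an IDR summit, and of those under 10 kb, 39.3% did. All 3 of the long genes in the group (dpp, tkv and sog) and 3 of the 6 short ones (gbb, sax and wit) had one.

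**Figure D1:**
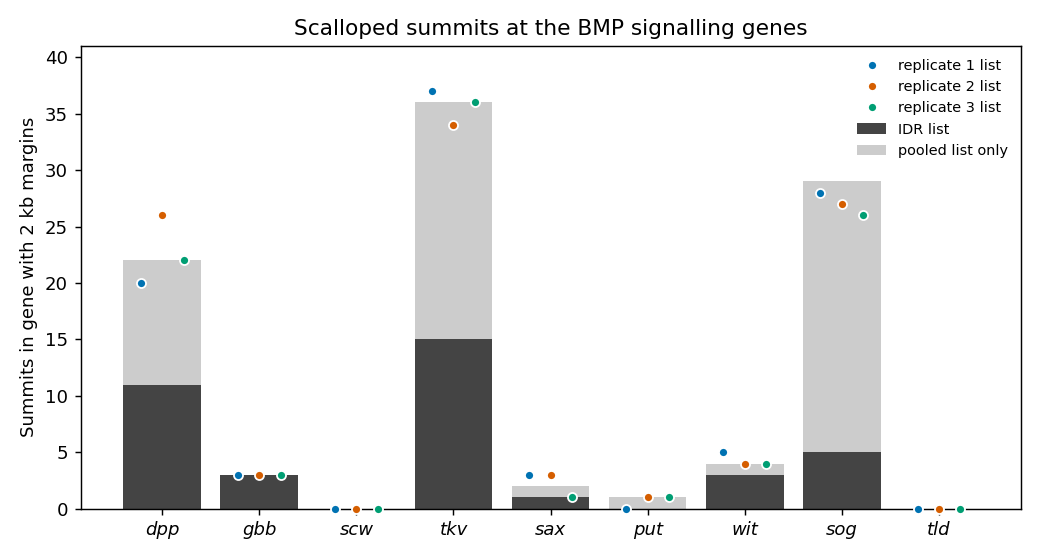
Number of Scalloped peak summits in each gene with 2000 bp on either side. Dark bars give the IDR list, the full height with the light part gives the pooled list, and points give the lists of the 3 replicates. The receptor gene tkv had the most in the IDR list (15), and sog had 29 pooled summits but 5 in the IDR list.

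The strongest summit of dpp and those of tkv, wit and sog are shown first as DNA, since these 4 positions carry most of the description that follows. Bases are from the RefSeq Release 6 genome (dm6), written 5′ to 3′ on the strand of the gene. Capitals mark the TEAD core CATTCC or its reverse complement GGAATG. In tkv they mark CAGGTA, a string contained in sites of the early embryonic factor Zelda, because no CATTCC lay within 100 bp of that summit. The windows are 2L:2433752-2433952, 2L:5233548-5233748, 3L:4071697-4071726 and X:15609487-15609687.
dpp intron, rank 151: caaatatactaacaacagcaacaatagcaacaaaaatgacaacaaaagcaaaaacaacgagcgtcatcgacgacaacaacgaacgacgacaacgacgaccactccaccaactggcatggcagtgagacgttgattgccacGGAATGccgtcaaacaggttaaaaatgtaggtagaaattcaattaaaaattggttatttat
tkv intron, rank 1063: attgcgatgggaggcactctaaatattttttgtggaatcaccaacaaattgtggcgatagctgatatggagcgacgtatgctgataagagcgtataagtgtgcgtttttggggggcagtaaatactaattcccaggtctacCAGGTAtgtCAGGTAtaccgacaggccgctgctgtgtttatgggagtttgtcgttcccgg
wit start, rank 1378: gcaaaccgcattCATTCCtcgaaagtcggc
sog intron, rank 947: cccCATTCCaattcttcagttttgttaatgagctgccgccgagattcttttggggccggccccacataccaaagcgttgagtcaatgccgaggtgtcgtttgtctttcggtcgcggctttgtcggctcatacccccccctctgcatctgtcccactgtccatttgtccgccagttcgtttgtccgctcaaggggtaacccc
In the dpp window the GGAATG began 40 bp downstream of the summit and shared its last base with a match to GCCGNC, a GC-rich string found in sites of Mad. In wit the CATTCC spanned the summit itself, from 3 bp upstream to 2 bp downstream. In sog it lay at the edge of the window, 97 to 92 bp upstream, and the window held 3 matches to GCCGNC. The 2 CAGGTA copies in tkv began 41 and 50 bp downstream of the summit.

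Among the ligands, dpp encodes the principal fly BMP, and its gene spans 2428372 to 2459823 on the plus strand of 2L (dm6). It has 4 annotated transcription start sites (TSSs), the later 3 lying 21821, 22857 and 26365 bp downstream of the first. Its strongest summit lay in an intron at 2433852 (peak interval 2433384 to 2434189), 5480 bp downstream of the first TSS. The peak ranked 151 in the IDR list by the authors' signal value, 3647, which is 6.60 times the median of that list. It ranked 153, 162 and 136 in replicates 1, 2 and 3, with signal values of 1226, 867 and 1582. The scale of the signal differs between lists, so each value was divided by the median of its own list. The peak then stood at 16.1, 15.4 and 16.4 times the median, or 16.0 ± 0.489 (SD, n = 3). All 3 replicates placed it high, with summits within 38 bp of the IDR summit. Of protein-coding genes, 1.61% had an IDR summit at least as strong.

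The other 10 summits of dpp were much weaker. The second strongest, an intronic summit at 2430491, ranked 2098 and stood at 4.44, 3.84 and 4.96 times the list median in the 3 replicates. The remaining 9 ranked from 4587 to 10322. All 6 intronic summits lay between the first TSS and the second. There were 3 summits within 500 bp of a dpp TSS. They lay 363 bp downstream of the first TSS (rank 9184), 100 bp downstream of the third (rank 4587) and 18 bp downstream of the fourth (rank 8570). The summit at the third TSS was not matched within 100 bp in replicate 1, where the nearest summit was 149 bp away. At the second TSS, no IDR summit lay within 500 bp. The last 2 were intergenic, 1416 bp upstream of the first TSS and past the 3′ end of the gene. Between 2438898 and 2451329 no IDR summit was found over 12431 bp, although the pooled list had 3 there. Few genes had as many summits as dpp: 0.947% of all protein-coding genes had at least 11. Among genes of at least 30 kb, whose median was 3.00, 84.0% had fewer than dpp.

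**Figure D2:**
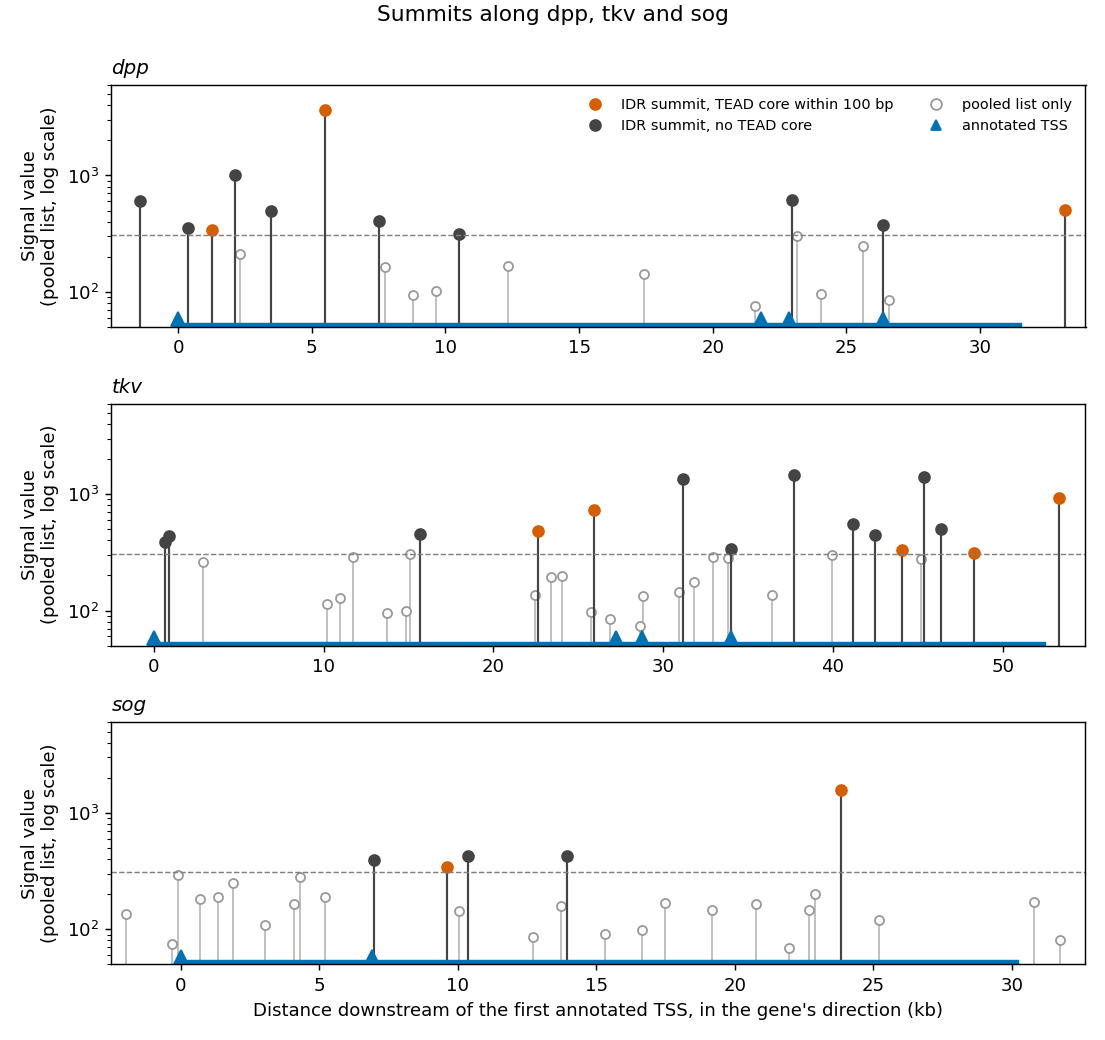
Position of IDR summits (filled) and of summits found in the pooled list alone (open) at dpp, tkv and sog, with distance in kb downstream of the first TSS on the x axis and the peak signal value on a log y axis. Triangles are annotated TSSs, the horizontal band is the gene, the dashed line is the lowest IDR signal, and orange points have the TEAD core CATTCC within 100 bp. The strongest summit of dpp lies 5480 bp downstream of the first TSS, and those of tkv and sog lie deep in the gene, 37736 and 23847 bp downstream of it.

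A second ligand gene, gbb, had the strongest summit of the group, but it lay outside the gene, in a region shared with other promoters. The gene gbb spans 23851562 to 23853247 on the plus strand of 2R and encodes a BMP that works beside Dpp in many tissues. The strongest summit, at 23851094, ranked 129 with a signal value of 3817, or 6.91 times the IDR median. It lay 468 bp upstream of the gbb TSS and 21 bp from the TSS of ytr, and its interval (23850660 to 23851603) covered both. In replicates 1, 2 and 3 it ranked 123, 161 and 120, with signal values of 1313, 868 and 1657. These are 17.2, 15.5 and 17.2 times the list medians, or 16.6 ± 0.998 (SD, n = 3). A second summit, at 23850372, ranked 230 and lay 71 bp from the TSS of eIF6, a translation factor gene, and 42 bp from that of the antisense gene asRNA:CR45928. It stood at 14.1, 13.5 and 12.5 times the list medians. The third, at 23851317 in the interval of the strongest, ranked 9947 overall and 11024, 5852 and 2787 in the replicates, the widest spread of ranks among the 3. No IDR summit lay inside gbb, and with the gene body alone it counted as having none. The lists do not assign a peak in such a region to one of its genes.

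No summit was found at scw in any of the 5 lists. This gene encodes the ligand that signals with Dpp in the early embryo. It spans 19699379 to 19700968 on the minus strand of 2L and lies inside the long gene Lar, which encodes a receptor tyrosine phosphatase. Lar, 145447 bp long, had 1 IDR summit, of rank 7148. The IDR summit nearest to scw was 57789 bp away.

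**Figure D3:**
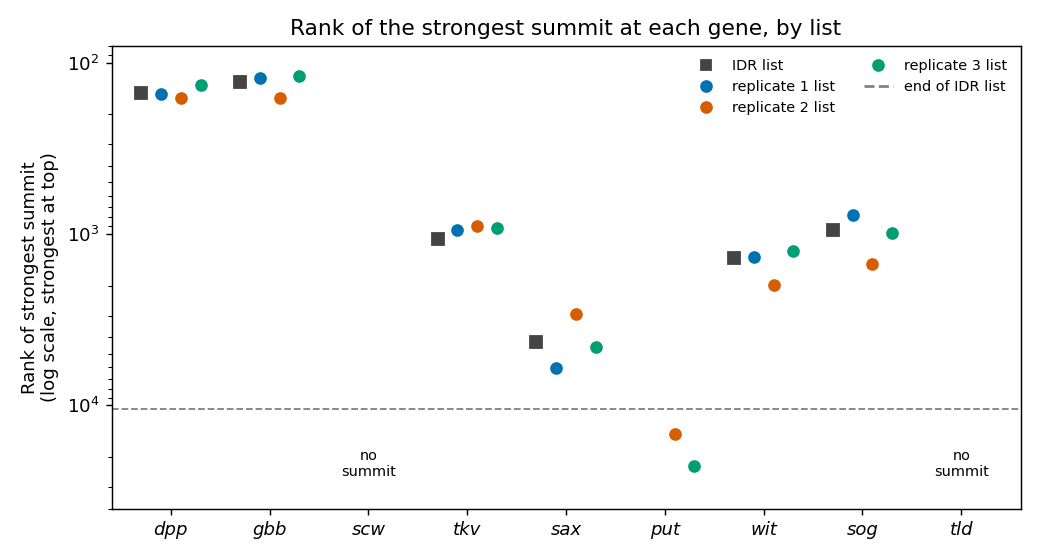
Rank of the strongest summit at each of the 9 genes, on a log y axis with the strongest at the top, in the IDR list and in each replicate list. The dashed line is the end of the IDR list. The genes gbb and dpp rank from 120 to 162 in every list, tkv, wit and sog lie between 779 and 1982, and put appears below the line in replicates 2 and 3 alone.

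The type I receptor gene tkv encodes the main receptor of Dpp and held more IDR summits than any other of the 9 genes. It spans 5219000 to 5271384 on the minus strand of 2L and has 4 TSSs, at 0, 27245, 28764 and 34022 bp along the gene. Of its 15 summits, 13 were intronic and 2 lay within 500 bp of a TSS. Inside the gene, 8 lay downstream of the last TSS. The strongest 3 were intronic and of like strength. They lay at 5233648 (rank 1063), 5226013 (rank 1128) and 5240231 (rank 1235). The first of them stood at 6.96, 4.50 and 7.05 times the list medians in replicates 1, 2 and 3 (6.17 ± 1.45, SD, n = 3). The second stood at 5.88, 4.92 and 6.51 times (5.77 ± 0.798) and the third at 6.91, 5.07 and 5.76 times (5.91 ± 0.928). Their ranges overlap, and their order changed between replicates: the first was highest in replicates 1 and 3 and lowest in replicate 2. Replicate 2 placed its own strongest tkv summit at 5225902, with rank 899, 111 bp from the IDR summit at 5226013.

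At the starts of tkv the peaks were weak. A summit 5 bp inside the last TSS, at 5237357, ranked 9635. It was found in replicates 1 and 3, and the nearest summit in replicate 2 was 225 bp away. The first TSS had none within 500 bp, and summits 652 and 923 bp downstream of it ranked 8134 and 7003. The latter was not matched in replicate 1, where the nearest summit was 257 bp away. Just past the 3′ end, a summit at 5218063 (rank 2428) lay 191 bp from the TSS of TpnC25D, a troponin C gene. For 6 of the 15 summits the nearest protein-coding TSS was that of another gene, and for 5 of these it was TpnC25D. The count at tkv was reached by 0.394% of all protein-coding genes, and 92.6% of genes of at least 30 kb had fewer.

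The 8 weaker summits of dpp, tkv and sog that held the TEAD core are given as 30 bases around it, since they show the letters beside the core. They have the same build, strand and capitals as above, and each is named by its gene and IDR rank. Their windows on 2L are 2461525-2461554 and 2429641-2429670 for dpp and, in order of rank, 5218065-5218094, 5245445-5245474, 5248741-5248770, 5227331-5227360 and 5223066-5223095 for tkv. That of sog is X:15623733-15623762.
dpp 6000: cccgctttgccgCATTCCccggcccgctca
dpp 9561: ctgaattaacggCATTCCacaccagtcaca
tkv 2428: aaccaagccattGGAATGtgaactagtgga
tkv 3624: cacatcgatttcCATTCCgaatgcgtctcg
tkv 6360: gtgattccagcgCATTCCtcgaggccattg
tkv 9906: attcagctactcGGAATGgagtgtaggtgt
tkv 10411: aaataaccgaatGGAATGgaatccgagagt
sog 9502: ctgtttttccccCATTCCccaccaccacta
In dpp the core began 6 bp and 1 bp upstream of the summit, and in tkv from 8 to 27 bp upstream. In sog it began 61 bp downstream. The core was held by 3 of the 11 summits of dpp, 5 of the 15 of tkv and 2 of the 5 of sog. The strongest 3 summits of tkv were not among them.

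The other type I receptor gene, sax, encodes a receptor that responds mainly to Gbb and Scw. It spans 7806484 to 7810067 on the plus strand of 2R. Its single IDR summit, at 7806466 (interval 7806327 to 7806576), lay 18 bp upstream of the first TSS and 81 bp from the TSS of its neighbour Nop17l. It ranked 4238, at 1.18 times the IDR median. In the replicates it ranked 6018, 2946 and 4532 and stood at 2.27, 3.77 and 2.80 times the list medians (2.95 ± 0.761, SD, n = 3). The highest of these values is below the lowest of the strongest tkv summit, 4.50. The window held no CATTCC but 1 copy of TATCGATA, the site of the promoter factor DREF.

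Of the type II receptors, wit had a summit at its start and put had none in the IDR list. The gene wit, which encodes the receptor used at the neuromuscular junction, spans 4064152 to 4071717 on the minus strand of 3L. Its strongest summit, at 4071711, lay 6 bp downstream of the TSS and ranked 1378. It ranked 1367, 1982 and 1264 in the replicates, at 5.73, 4.70 and 5.92 times the list medians (5.45 ± 0.656, SD, n = 3). An intronic summit 1103 bp downstream of the TSS ranked 3713. The third, at 4068946, ranked 8914 and lay 423 bp from the TSS of CG32259. Of the genes with a single TSS, wit alone had an IDR summit both inside the gene and at its start.

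The gene put encodes the type II receptor shared by BMP and activin signalling and spans 14619030 to 14625703 on the minus strand of 3R. Its only pooled summit, at 14625772, ranked 16079 with a signal value of 194, below the lowest value in the IDR list, 308. It was found in replicates 2 (rank 14635) and 3 (rank 22601) and not in replicate 1. This weak summit lay 69 bp upstream of the put TSS and 16 bp from the TSS of the histone gene His4r. The nearest IDR summit, of rank 1486, was 4610 bp from the gene and 165 bp from the TSS of Cad88C, a cadherin gene.

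The inhibitor gene sog, the fly counterpart of chordin, spans 15603283 to 15633434 on the minus strand of X. It had 1 strong summit and many weak ones. The strong summit, at 15609587 (interval 15609181 to 15609929), lay in an intron 23847 bp downstream of the first TSS and ranked 947. It ranked 779, 1489 and 984 in the replicates, with signal values of 587, 305 and 655. These are 7.70, 5.43 and 6.78 times the list medians (6.64 ± 1.14, SD, n = 3). The nearest protein-coding TSS is that of the neighbouring gene Chsy, 16053 bp away, and the nearest sog TSS is 16953 bp away. The next 4 summits ranked from 7269 to 9502. Of genes of at least 30 kb, 58.1% had fewer summits than the 5 of sog. Of the 4 weaker ones, 1 lay 80 bp inside the second TSS (rank 7993) and 3 were intronic. Another 24 summits appeared in the pooled list alone, at ranks 11154 to 29713. The strongest of those lay 101 bp upstream of the first TSS, with a signal value of 292, just under the end of the IDR list, and ranked 13956, 11112 and 10835 in the replicates. Thus 17.2% of the pooled summits of sog were in the IDR list, against 35.2% of all pooled summits. At dpp this was 11 of 22 and at tkv 15 of 36 (41.7%). Of the 24, 12 were found in all 3 replicates.

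The protease gene tld had no summit in any of the 5 lists. It spans 24749731 to 24753510 on the plus strand of 3R, and the nearest IDR summit was 14264 bp away. Its relative tok, which encodes a related protease, lies beside it and had 1 IDR summit, of rank 6123. The genes scw and tld were thus both at 0 in all lists. Both are short, and of protein-coding genes under 10 kb, 39.3% had an IDR summit. In the pooled list, 54.5% of all protein-coding genes had a summit.

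Ordered by strongest summit, the genes ran gbb, dpp, sog, tkv, wit and sax. The relative signal of gbb (15.5 to 17.2 times the list median) overlapped that of dpp (15.4 to 16.4). Within each replicate, however, gbb stood above dpp. The values were 17.2 against 16.1 in replicate 1, 15.5 against 15.4 in replicate 2 and 17.2 against 16.4 in replicate 3. The gap in replicate 2 was small, and the difference was not tested. The ranges of sog (5.43 to 7.70), tkv (4.50 to 7.05) and wit (4.70 to 5.92) overlapped too. Within replicates sog stood above wit each time, whereas the place of tkv relative to sog and to wit changed between replicates. The values of sog, tkv and wit lay below those of gbb and dpp in every replicate and above those of sax (2.27 to 3.77). Among all protein-coding genes ordered in this way, gbb was at place 183, dpp 224, sog 1283, tkv 1413, wit 1768 and sax 3966.

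Although the strongest summits stood high, the 38 summits as a set did not. Their median rank was 6267, beside a middle rank of 5277 for the list, and 16 were above the median IDR signal. Their median interval width was 364 bp, against 441 bp for all IDR peaks. By position, 24 were intronic (63.2%, against 45.5% of all IDR summits), 12 lay within 500 bp of a TSS (31.6%, against 38.2%) and 2 were intergenic. None lay in a UTR, a coding sequence or another exon beyond 500 bp of a TSS. The nearest protein-coding TSS was that of one of the 9 genes for 27 of the 38 and that of another gene for 11. Of the 17 TSSs of the 9 genes, 9 had an IDR summit within 500 bp, and 25.3% of the 19607 annotated TSSs of protein-coding genes had one. The 9 include 2 of sax that share a single summit.

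The TEAD core had a higher share at these summits than over the whole list, a difference that was not tested. CATTCC or its reverse complement, on either strand within 100 bp, was present at 13 of 38 summits (34.2%), against 19.8% of all IDR summits. The control string CTACTC, which has the same letters in another order, was present at 3 (7.89%, against 3.63%), so it too was more frequent. Within 50 bp of the summit the core was present at 11 summits (28.9%, against 13.8%), and within 10 bp at 5 (13.2%, against 3.13%). It was present at 4 of the 12 summits near a TSS (15.8% of such IDR summits held it) and at 9 of the other 26 (22.3%). At the 2 strong gbb summits the cores numbered 2 and 1, and these peaks lie nearest to ytr and eIF6. Among the 27 summits whose nearest protein-coding TSS is that of the gene itself, 7 held the core (25.9%), closer to the share over the whole list.

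Of the other strings, GCCGNC was present at 12 summits (31.6%, against 23.1%) and GAGAG, the string bound by GAGA factor, at 12 (31.6%, against 29.3%). CAGGTA was present at 3 (7.89%, against 4.23%) and TATCGATA at 2 (5.26%, against 2.10%). AATTCC, which differs from the core in its opening base, was present at 3 (7.89%, against 23.5%), the only string searched that was less frequent than in the whole list. A match is a string of letters and not a measured site, and neighbouring summits share sequence.

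Most of these summits recurred in the replicates. Of the 38, 35 (92.1%) were matched within 100 bp in each replicate, against 91.4% of all IDR summits, and the other 3 were found in 2. Spearman's rho of their signal values was 0.844 between replicates 1 and 2 (35 summits), 0.796 between 1 and 3 (36 summits) and 0.903 between 2 and 3 (37 summits). Over all IDR summits it was 0.753, 0.862 and 0.819. These describe agreement across summits of the same libraries and carry no test. Replicate 2 gave the lowest standing: of the 35 summits, 26 (74.3%) ranked lower in replicate 2 than in either other, against 50.3% of all IDR summits found in the 3.

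**Figure D4:**
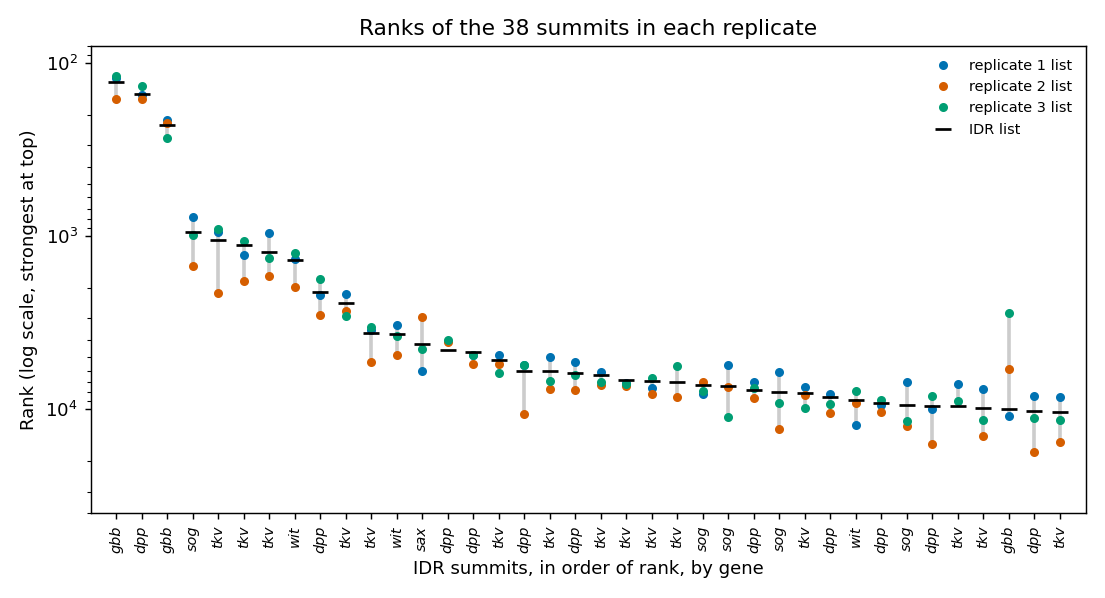
Rank of each of the 38 IDR summits in the 3 replicate lists (points) and in the IDR list (bars), on a log y axis with the strongest at the top, in order of IDR rank and named by gene. Grey lines join the replicates. At 26 of the 35 summits matched in each replicate, replicate 2 lies lowest, and the weakest gbb summit spans 2787 to 11024.

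Counts of genes changed little between lists. A summit was found at 7 of the 9 genes in the pooled list (54.5% of protein-coding genes), at 6 in the list of replicate 1 (54.0%) and at 7 in those of replicates 2 (61.7%) and 3 (55.2%). The gene that came and went was put. All 59 weaker summits of the 9 genes, those in the pooled list alone, were also followed. Of these, 27 (45.8%) were found in all 3 replicates, against 41.7% of all such summits.

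Of 38 other genes of BMP and activin signalling, 28 (73.7%) had an IDR summit, against 44.0% of protein-coding genes. These 38 were chosen with earlier results of these data known, and their length was not matched. Of protein-coding genes of at least 30 kb, 73.3% had an IDR summit, and of those under 10 kb, 39.3% did. Among the 38, the strongest summits lay at shn, ush and Dad, ahead of every one of the 9 genes. The 4 Smad genes all had one, led by Dad, the inhibitory Smad (rank 76), and Med, the common Smad (rank 802, nearest to the TSS of Mnat9). Both nuclear factors had one: shn, the Mad cofactor (rank 20, 36 summits), and brk, the repressor of Dpp targets (rank 2188). Of 9 extracellular modulators, 7 had a summit, led by the glypicans dlp (rank 432) and dally (rank 501), and tsg and srw had none. The remaining receptor, the activin type I receptor babo, had 1 summit, of rank 4845, nearest to the TSS of CG8229. Of 18 target genes of the pathway, 14 had a summit, led by ush (rank 49, nearest to the TSS of cbt) and Ubx (rank 567). None of the 4 other ligand genes had one. These are Actbeta, daw, myo and mav, named after their values were seen, and all but daw lie on chromosome 4, which had 13 IDR peaks in all. With scw, 5 of the 7 ligand genes had no IDR summit, and gbb had none inside the gene. Of all protein-coding genes, 44.0% had an IDR summit by the same rule, and 19.8% had one in the gene body alone.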

How the data were processed

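The 3 samples are ChIP-seq libraries of 1 group. The 9 genes and all lists of genes and motifs were chosen with earlier results of these data known. Per the file headers, each deposited peak list came from dm6 alignments set against a single control alignment. The aligner, the caller and the IDR threshold are not given in the sources used here. The deposited signal value, set by the authors' caller, ranked peaks within a list. The deposited −log10 q value did not rank them, since the strongest share its highest value. The deposited summit offset, added to the start, gave 1-based summits.

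Genes and TSSs came from Ensembl release 115 (BDGP6.54, dm6 coordinates) and sequence from RefSeq Release 6, whose arms have the same lengths. Summits were counted inside each gene plus 2000 bp beyond its ends. Summits of separate lists were matched within 100 bp. The TSS class took summits within 500 bp of any gene's TSS, and motifs were exact matches wholly within 100 bp on both strands. A summit in the region of several genes counts for each. Replicate values are a mean ± SD (n = 3). Whether same-group spread is wholly biological cannot be known from lists, and unknown depth leaves counting error out of it. With 1 group no p-value was computed. Text names all 9 genes, the 2 strongest other pathway genes per role and those without a summit where 3 or fewer, the genes next in order to the strongest 2, and genes with the nearest TSS. Margins, windows, lists and replicates were varied. Procedures were tested on simulated data. Computation used pandas 2.3.3, scipy 1.17.1, numpy 2.4.6 and matplotlib 3.10.9 under Python 3.11.15.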

Additional observations from a re-analysis of the deposited data

How the results depend on the processing

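For the values that summarise the 9 genes, 36 alternatives stayed within 1.5 times the main count, or within the spread between replicates, and 7 did not. For the count over the other pathway genes, 6 did and 1 did not. The number of genes with a summit ran from 4 (gene body alone, where gbb and sax had none) to 7 (margin of 5000 bp, where put gained one). Of all protein-coding genes, 19.8% had one in the gene body alone. The share of all genes with a margin of 5000 bp is not given here, so the 7 cannot be set against it. With peaks above the median signal, 16 summits remained at the 9 genes, and 7 of them held CATTCC. In the strongest 10553 peaks of replicate 2, 8 of the 36 summits at the 9 genes held CATTCC. In those of replicates 1 and 3, 13 of 39 and 11 of 35 did. The shares over all peaks of these subsets are not given here. With the gene body alone, 7 summits lay near a TSS, and 16 of the 38 other pathway genes (42.1%) had a summit, against 19.8% of all protein-coding genes. Counting only summits nearest to a TSS of one of the 9 genes, chosen after seeing the data, gave 7 with CATTCC and 7 near a TSS. Leaving out each replicate in turn, 35 to 37 summits were found in all that remained, and the mean rho, 0.848, became 0.796 to 0.903. The strongest summit of sax moved from rank 4238 to 1637 with a margin of 5000 bp, which takes in a summit at puml. No paired analysis was possible because there is 1 group. The causes were not tested. Unknown depth limits what a missing summit shows: it was not in a list of 30000 peaks.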

Other observations

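For dpp, gbb, sax, put, wit and tld, IDR summits beyond 2000 bp but within 20 kb of the gene were mostly nearest to other genes. Around tkv and sog such summits were counted but not located. Within 20 kb, tkv had 16 IDR summits against 15 within 2000 bp, and sog had 10 against 5. Around dpp, 9 such IDR summits brought its count to 20. The strongest of them, at 2473998 on 2L, ranked 1359 and lay 14175 bp past the 3′ end of the gene. It was intergenic, with the nearest protein-coding TSS that of Slh, 18673 bp away. Around gbb the strongest, at 23843304, ranked 87 and lay 18 bp from the TSS of shu, ahead of the summits within 2000 bp of gbb. Around tld, 4 summits lay near CG13631 or CG42331, ranking from 2951 to 10432. None lay within 20 kb of scw.

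The genes next to gbb in the order of strongest summit were CD98hc, Os-C and Sfp84E above it (all through a summit of rank 128) and CG8188 and chas below it (rank 130). The genes eIF6 and ytr share the gbb summit of rank 129. Next to dpp were CG34310, Galt and cup above (rank 150) and CG42516, Obp44a, Pabp2 and Pbp49 below (rank 153). Several genes share a rank because their regions hold the same summit. By number, dpp had 11 summits, and these neighbours had 1 to 6.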
